A study of Mus musculus with 16 samples.

Results

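The RGS genes described here were Rgs1, Rgs2, Rgs3, Rgs4, Rgs10, Rgs12, Rgs14, Rgs16, Rgs18 and Rgs19, chosen by gene name as regulators of G protein signaling, 10 of 54532 genes per table. RNA-seq was performed on pulmonary endothelial cells (ECs) in a pair of experiments with 16 libraries in all. The first held ECs of male wild-type (WT) C57BL/6J mice, 8 weeks of age, 24 h after intratracheal saline (n = 4) or 10 mg/kg LPS (n = 6), where LPS is lipopolysaccharide from the outer membrane of bacteria. The second held ECs of Fgfr1 loxP/loxP control littermates (n = 3) and of VE-cadherin-CreERT2 Fgfr1 loxP/loxP mice, written Fgfr1 iΔEC/iΔEC (n = 3), all 24 h after 2 mg/kg LPS, so this experiment had no saline group. The Cre recombinase in the second experiment was driven by the promoter of VE-cadherin, an endothelial junction protein, and became active with tamoxifen. Mice of both genotypes of that experiment, the controls included, were given tamoxifen. The ages of the mice of the second experiment and the number of mice per library were not given in the sources used here, so p-values measure only the spread between these libraries. Cells were taken from digested lung with magnetic beads, first removing those that carried CD45, a leukocyte surface protein encoded by Ptprc, and then keeping those that carried CD31, an endothelial surface protein encoded by Pecam1.

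Heterotrimeric G proteins relay signals from cell surface receptors (G protein coupled receptors, GPCRs) and stay active as long as their alpha subunit holds GTP. RGS proteins share a domain that speeds up the hydrolysis of that GTP, and so they shorten signaling by chemokine, thrombin, sphingosine-1-phosphate and endothelin receptors. Of the members, Rgs1, Rgs2, Rgs3, Rgs4, Rgs16 and Rgs18 belong to the R4 subfamily, Rgs10, Rgs12 and Rgs14 to the R12 subfamily, and Rgs19 to the RZ subfamily. In the lung, these proteins act in ECs as well as in leukocytes, platelets and smooth muscle cells.

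On GRCm38, 5 of the 10 members lay on chromosome 1. Rgs2 (chr1:143999338-144004161), Rgs1 (chr1:144242296-144249242) and Rgs18 (chr1:144752683-144775435) stood on the minus strand of one stretch in which Rgs13 and Rgs21 were the only other protein-coding genes, each an RGS gene too. Rgs16 (chr1:153740349-153745468) began 40.0 kb from Rgs8 and Rgs4 (chr1:169741477-169747642) lay 45.7 kb from Rgs5, with no protein-coding gene between either pair. Exons of Rgs16 shared 236 of 2339 bases with the opposite-strand gene Gm28513, and exons of Rgs12 shared 467 of 8487 bases with the opposite-strand gene Gm43791. Whether reads were counted by strand was not given in the sources used here, so reads of these pairs on the shared bases cannot be told apart.

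Promoter windows, 250 bases before to 50 bases after an annotated start, were found in RefSeq on GRCm38.p6 for 7 of the 10 members, 11 windows in all. Each was searched on both strands for the AP-1 motif TGANTCA, the cAMP response motif TGACGTCA, the TATA box TATAAA and the NF-kappaB consensus, whose matches did not overlap each other in these windows. The motifs were found in 7.81%, 1.79%, 13.6% and 8.46% of 32851 windows of the same length. None of the 4 motifs was found in 7 of the 11 windows, among them those of Rgs2, Rgs10, Rgs16 and Rgs19. The windows of Rgs3 and Rgs4 held a TATA box, and of the windows of Rgs12 the one at the start site farther into the gene held an AP-1 and an NF-kappaB match. These 250 bases before the start sites of a pair of members that were higher after LPS (Rgs19, the first of its 3 windows, and Rgs16) and of the member with the smallest difference (Rgs4) are shown 5′ to 3′ on the strand of the gene, with any motif match in capitals. They span chr2:181693978-181694227 (minus strand), chr1:153740103-153740352 (plus strand) and chr1:169747643-169747892 (minus strand).
Rgs19: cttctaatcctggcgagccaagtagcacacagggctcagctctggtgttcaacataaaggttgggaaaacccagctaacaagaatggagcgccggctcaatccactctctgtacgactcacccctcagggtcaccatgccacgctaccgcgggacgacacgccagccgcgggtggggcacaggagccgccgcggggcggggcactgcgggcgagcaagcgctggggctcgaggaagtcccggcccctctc
Rgs16: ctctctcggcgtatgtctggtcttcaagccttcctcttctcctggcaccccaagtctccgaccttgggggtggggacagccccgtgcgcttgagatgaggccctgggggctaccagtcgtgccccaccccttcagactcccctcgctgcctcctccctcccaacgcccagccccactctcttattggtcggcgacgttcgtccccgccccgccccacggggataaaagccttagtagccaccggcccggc
Rgs4: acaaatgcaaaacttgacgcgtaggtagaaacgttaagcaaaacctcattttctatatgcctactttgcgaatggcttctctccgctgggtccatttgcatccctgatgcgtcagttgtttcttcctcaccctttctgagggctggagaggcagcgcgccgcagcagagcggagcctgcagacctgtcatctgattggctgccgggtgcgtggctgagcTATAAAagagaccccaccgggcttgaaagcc
The only capitals are the TATA box of Rgs4, which began 31 bases before its start site. A match is a description of letters, and these windows hold no measure of binding.

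The values are FPKM, the fragments on a gene per kilobase of its length, divided by a scale for each library, so levels can be set side by side between genes. That scale did not follow the number of reads on genes. In saline replicate 2, with 18807007 reads, 1 read per kilobase equalled 0.0452 FPKM. In LPS replicate 2, with 18133012 reads, it equalled 0.0616 FPKM. The deposited scale already lay within 0.182% of the median-of-ratios scale used for the tests. The libraries held 13478726 to 18807007 reads on genes after saline, 17840221 to 19043015 after LPS, 15969575 to 17002788 in Fgfr1 loxP/loxP mice and 16642177 to 16943522 in Fgfr1 iΔEC/iΔEC mice. Pecam1 was high in every library, at 339 to 516 FPKM after saline and 234 to 444 FPKM after LPS. Ptprc was read in every library despite the depletion, at 3.53 to 10.99 FPKM after saline and 22.1 to 52.7 FPKM after LPS. Certain libraries stood apart from their groups. Saline replicate 1 had the highest neutrophil markers of the saline group, saline replicate 3 the lowest lymphocyte and fibroblast markers, and LPS replicate 1 the lowest endothelial markers of the LPS group. In bulk RNA, fewer cells of a type and less RNA per cell cannot be told apart.

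The comparison of LPS with saline asked how the RGS genes differed in the EC fraction of the injured lung. After LPS, Rgs19, Rgs1, Rgs10, Rgs14, Rgs16 and Rgs18 were higher, with mean FPKM 3.595 to 5.26 times that after saline. Rgs2 was 1.98 times as high, Rgs4 did not differ beyond its spread, and Rgs3 and Rgs12 were lower, although both turned to slightly positive values when the libraries were scaled on the endothelial markers. Calls were made with limma on log2(FPKM + 1) over 14893 genes, at a Benjamini-Hochberg adjusted p of at most 0.05 together with a log2 fold change of 1 or more in size. By that rule 6 of the 10 members were higher and 0 lower, against 11.9% and 6.79% of all genes tested. Of all calls, 63.6% were higher, against 96.3% when scaled on the endothelial markers, 48.8% with total reads and 50.7% after quantile normalization. With the adjusted p alone, 7 members were higher and 2 lower, against 29.5% and 23.7% of all genes. The median log2 fold change was 1.20 over the members and 0.01 over all genes. All 10 members passed the filter of a mean of at least 0.5 FPKM. Leaving out saline replicates 1 and 3 and LPS replicate 1 together, which was chosen after seeing the data, left 5 members higher, with Rgs18 at a log2 fold change of 0.81.

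**Figure D1:**
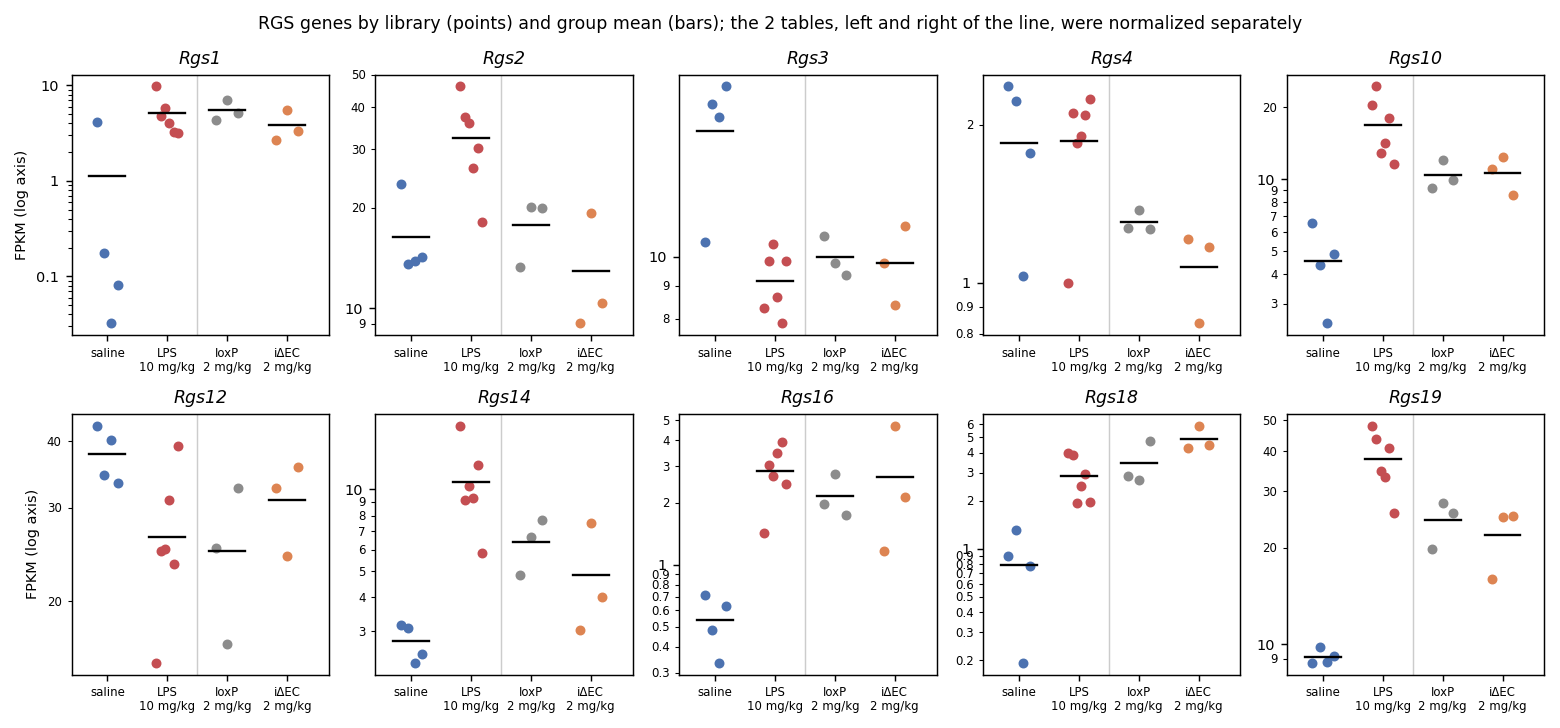
FPKM of each RGS gene on a log axis, with a point per library and a bar at the group mean, for saline and LPS 10 mg/kg (first table) and for Fgfr1 loxP/loxP and Fgfr1 iΔEC/iΔEC mice after LPS 2 mg/kg (second table, normalized separately). All 6 LPS libraries of Rgs19 (25.7 to 48.1) lie above the 4 saline libraries (8.75 to 9.79), whereas those of Rgs4 overlap them.

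Among the R4 members, Rgs1 is known from lymphocytes, where it dampens migration towards chemokines. Its FPKM after saline was 4.18, 0.176, 0.0322 and 0.0805 in replicates 1 to 4, and after LPS 3.18 at the lowest, 4.44 at the median and 9.77 at the highest. A single saline library, replicate 1, reached into the LPS range, and the other saline libraries held 42 reads together. On the log2(FPKM + 1) scale, the difference was 1.85 (SE 0.44, adjusted p = 0.00488 in limma, two-sided exact permutation p = 0.0381). Without saline replicate 1 it was 2.41 (limma adjusted p = 6.61e-05), and the mean FPKM after LPS was 53.6 times the mean of the remaining saline libraries. The same saline replicate 1 had summed neutrophil markers of 1372 FPKM, where replicates 2 to 4 had 72.5 to 307 FPKM. Its sums were also the highest of the group for leukocyte (213 FPKM, others 64.8 to 134), epithelial (2858, others 1074 to 2113) and mural markers (118, others 25.2 to 47.8). The same held for the macrophage, platelet, erythroid and endothelial sums, but not for the lymphocyte sum. The part of these cells in the Rgs1 value was not tested.

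Rgs2 acts mainly on alpha subunits of the Gq class and limits the signaling of vasoconstrictor receptors. It was read at 23.6, 13.6, 13.8 and 14.3 FPKM after saline and at 18.2, 33.0 and 46.2 FPKM (lowest, median, highest) after LPS. Saline replicate 1 lay above LPS replicate 6, so the groups overlapped. The log2 fold change of 0.93 (SE 0.24) had a limma adjusted p of 0.00784 and was below the fold limit, which it passed without saline replicate 1 or LPS replicate 6 (up to 1.11), with the replicate block (1.12) and under scaling on the endothelial markers (1.68, adjusted p = 0.00169). Quantile normalization gave 0.60 (adjusted p = 0.0398).

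Rgs16 acts on Gi and Gq class subunits and is induced in many cells by inflammatory signals. Its FPKM was 0.711, 0.483, 0.335 and 0.630 after saline, from 14 to 29 reads per library, and 1.42, 2.88 and 3.93 (lowest, median, highest) after LPS, from 61 to 165 reads. The groups did not overlap, and the mean after LPS was 5.26 times that after saline. The log2 fold change was 1.29 (SE 0.19, adjusted p = 0.000219 in limma, exact permutation p = 0.00952, which is the lowest possible with 4 and 6 libraries). LPS replicate 1, which had the most leukocyte marker RNA of the LPS group, had the lowest Rgs16 of that group. Rgs8, its neighbour on chromosome 1, had at most 3 reads in any library.

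Rgs18, a member best known from platelets and megakaryocytes, was at 0.893, 1.31, 0.193 and 0.776 FPKM after saline and at 1.92, 2.70 and 3.99 FPKM (lowest, median, highest) after LPS. The groups did not overlap. Its log2 fold change was 1.11 (SE 0.22, limma adjusted p = 0.00146), and scaling on total reads gave 1.00, just below the fold limit, as it was without saline replicate 3 (0.93). It was 1.53 under scaling on the endothelial markers, 1.87 with a pseudocount of 0.1 in place of 1 and 2.02 in limma-voom. The platelet markers moved with it. Of the 6 tested of 8 in that list, 3 were called higher, or 1 with total reads and 1 with quantile normalization, and the summed FPKM of the list was 50.3, 41.2, 20.4 and 30.4 after saline and 49.8, 76.1 and 146 (lowest, median, highest) after LPS, with Ppbp the most abundant after saline and Pf4 after LPS. Their part in the Rgs18 result was not tested.

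Rgs3 acts on Gi and Gq class subunits and also binds G protein beta-gamma dimers. It was at 10.5, 17.3, 16.5 and 18.4 FPKM after saline and at 7.86, 9.24 and 10.5 FPKM (lowest, median, highest) after LPS. Saline replicate 1 lay only just above the highest LPS library, and the other saline libraries were clearly higher. The log2 fold change was -0.70 (SE 0.15, limma adjusted p = 0.00294), and scaling on the endothelial markers instead gave 0.04 (adjusted p = 0.907).

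Rgs4, an inhibitor of Gi and Gq signaling whose protein is short-lived, was at 2.37, 2.22, 1.03 and 1.77 FPKM after saline and at 0.999, 2.00 and 2.24 FPKM (lowest, median, highest) after LPS. The groups overlapped over almost their whole ranges. The log2 fold change was 0.02, with a 95% confidence interval from -0.37 to 0.41 (limma adjusted p = 0.938), and its sign turned in several alternatives.

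Of the R12 members, Rgs10 is a short protein, little more than an RGS domain, known from microglia and macrophages. Its FPKM was 6.54, 4.36, 2.49 and 4.87 after saline and 11.6, 16.1 and 24.5 (lowest, median, highest) after LPS. All LPS libraries lay above all saline libraries. The mean after LPS was 3.72 times that after saline, with a log2 fold change of 1.70 (SE 0.24, limma adjusted p = 0.000205).

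Rgs14 and Rgs12 are larger relatives that, beside the RGS domain, carry Ras-binding domains and a GoLoco motif, which holds Gi alpha subunits in their GDP-bound form. Rgs14 was at 3.17, 3.08, 2.30 and 2.48 FPKM after saline and at 5.82, 9.78 and 17.2 FPKM (lowest, median, highest) after LPS. The groups did not overlap, and the log2 fold change was 1.58 (SE 0.22, limma adjusted p = 0.000197). Rgs12 differed in the other direction. It was at 42.8, 34.7, 40.3 and 33.4 FPKM after saline and at 15.3, 24.98 and 39.1 FPKM (lowest, median, highest) after LPS. LPS replicate 6 was as high as the saline libraries and LPS replicate 1 was the lowest. The log2 fold change was -0.54 (SE 0.21, limma adjusted p = 0.0482). It passed the threshold narrowly, was above it in 12 of 18 alternatives, among them leaving out any one of the saline libraries (up to 0.103), and scaling on the endothelial markers gave 0.22 (adjusted p = 0.250). Quantile normalization gave -0.94 (adjusted p = 0.00317), and leaving out saline replicates 1 and 3 and LPS replicate 1 together gave -0.26.

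Rgs19, also called GAIP, is an RZ member with a cysteine-rich stretch near its start that acts on Gi class subunits and Gz. It was at 8.75, 9.79, 8.81 and 9.20 FPKM after saline, with the smallest spread relative to the mean of the members in that group (a coefficient of variation of 5.24%), and at 25.7, 38.0 and 48.1 FPKM (lowest, median, highest) after LPS. The lowest LPS library was 2.62 times as high as the highest saline library. The log2 fold change of 1.91 (SE 0.16) had the smallest adjusted p of the members (5.81e-06 in limma, exact permutation p = 0.00952).

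**Figure D2:**
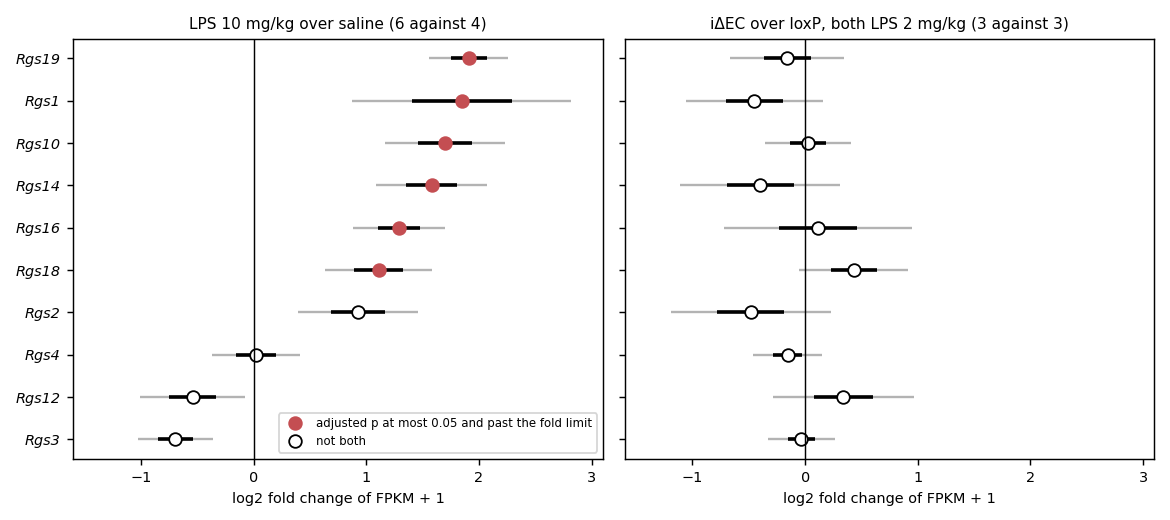
log2 fold change of FPKM + 1 for each RGS gene, with SE (thick line) and 95% confidence interval (thin line), for LPS over saline (left) and Fgfr1 iΔEC/iΔEC over Fgfr1 loxP/loxP (right). In the left panel 6 members are filled, as past both limits. Rgs3 and Rgs12 lie below 0 there, which they did not under scaling on the endothelial markers. In the right panel, from the fit without a block, all 10 intervals include 0. With the same-numbered libraries as a block, a pairing taken from these data and given by no label, those of Rgs1, Rgs2 and Rgs12 did not.

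Counted by ranges, 5 members had all LPS libraries above all saline libraries, Rgs10, Rgs14, Rgs16, Rgs18 and Rgs19, and 1 member, Rgs3, had all of them below. Over all genes tested these shares were 22.7% and 16.7%. None of the 6 members called higher changed sign, and none lost its adjusted p, in any alternative, those of leaving out a library included. The values of the low genes Rgs1 and Rgs16 depended on the pseudocount, at 3.57 and 2.18 with 0.1 in place of 1, and limma-voom gave 4.67 and 2.37.

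The make-up of the RGS family shifted with these differences. The summed FPKM of all 21 RGS genes was 106 ± 10.7 (SD, n = 4) after saline and 154 ± 17.7 (SD, n = 6) after LPS, at 99.6 to 122 and 130 to 177 FPKM, so that the groups did not overlap. Rgs12 held 35.6% ± 3.37 (SD) of this sum after saline and 17.9% ± 7.30 after LPS. Rgs3 held 15.1% ± 4.38 and 6.03% ± 1.09. Rgs19 held 8.66% ± 1.05 and 24.3% ± 2.82, and Rgs10 held 4.23% ± 1.23 and 10.9% ± 2.12. Among the 10 members, in order of level after saline, Rgs12 stood first and apart from Rgs2 and Rgs3, whose ranges overlapped, and these were followed by Rgs19 and Rgs10, each apart from the one before. Below Rgs10, the ranges of Rgs14, Rgs4, Rgs1, Rgs18 and Rgs16 overlapped with their neighbours in that order. After LPS the order of the members began with Rgs19, Rgs2 and Rgs12, and every neighbouring pair overlapped, down to Rgs4 as the lowest of the 10.

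**Figure D3:**
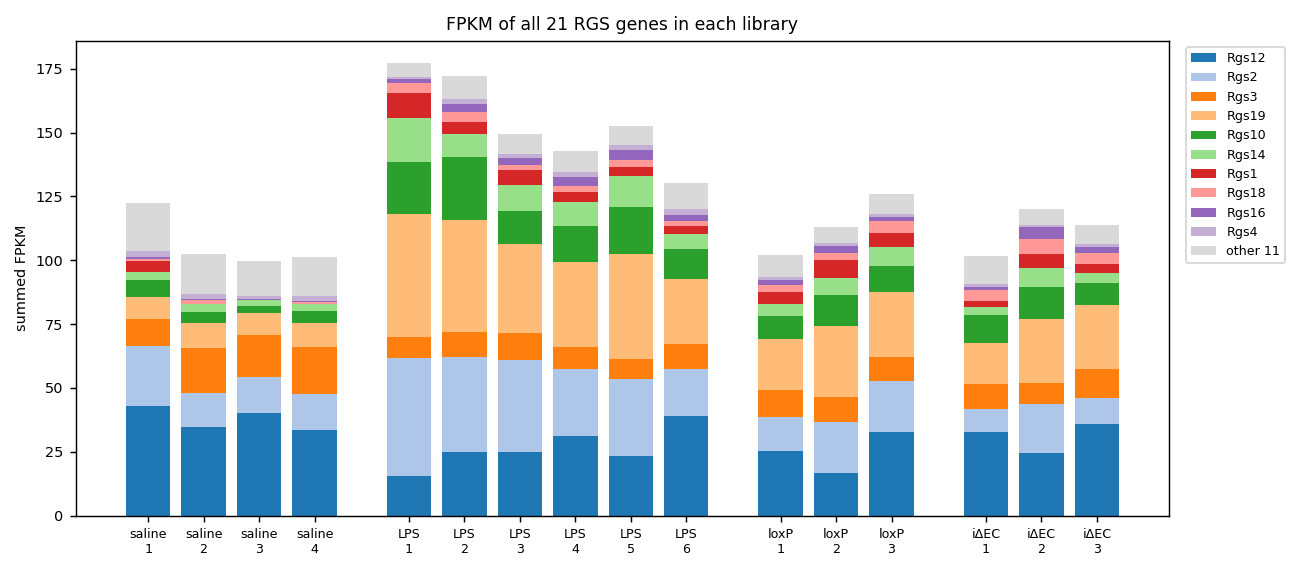
Summed FPKM of all 21 RGS genes in each library (bars from 0), divided by gene, with the 2 tables normalized separately. The sum is 99.6 to 122 in the saline libraries and 130 to 177 in the LPS libraries, and the segment of Rgs12 is largest after saline.

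Of the 11 other RGS genes, which were listed with earlier results known, only Rgs5, Rgs6 and Rgs9 passed the filter. Rgs6 and Rgs9 belong to the R7 subfamily, which works as a dimer with the G protein beta subunit encoded by Gnb5 and is known from neurons and retina. Rgs9 was at 8.51 to 10.9 FPKM after saline and at 3.17 to 6.36 FPKM after LPS, with a log2 fold change of -0.93 (SE 0.16, limma adjusted p = 0.000607). Rgs6 was at 1.46 to 2.54 FPKM after saline and 0.244 to 0.791 FPKM after LPS, with -0.88 (SE 0.15, adjusted p = 0.000584). In both genes all LPS libraries were below all saline libraries, and neither passed the fold limit on this scale. Rgs9 passed it with total reads (-1.11), quantile normalization (-1.04), the replicate block (-1.01), a pseudocount of 0.1 (-1.06), limma-voom (-1.08) and without LPS replicate 6 (-1.02), and gave -0.25 (adjusted p = 0.250) under scaling on the endothelial markers. Rgs6 passed it with that pseudocount (-1.63) and in limma-voom (-1.83), and gave -0.49 under the endothelial scaling. Rgs5, a marker of pericytes, gave -0.39 (SE 0.21, adjusted p = 0.133). Rgs13, which lies between Rgs2 and Rgs1, had at most 3 reads in any library. Rgs21, which lies between Rgs1 and Rgs18, had 0 reads in all 16 libraries, which allows up to 3 reads or 0.0344 to 0.0575 FPKM per library, counting error only.

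Markers of other cell types moved with the RGS genes. All 6 leukocyte markers were called higher after LPS, with Ptprc at a log2 fold change of 2.19 (SE 0.28, adjusted p = 0.000112 in limma). Their summed FPKM was 213, 134, 64.8 and 115 after saline and 531, 948 and 1335 (lowest, median, highest) after LPS, with Coro1a the most abundant. Of the macrophage markers 7 of 8 were called higher, with a sum of 1201, 530, 845 and 421 FPKM after saline and of 2097, 3606 and 4530 FPKM (lowest, median, highest) after LPS, most of it Lyz2. Of the neutrophil markers 5 of 8 were called higher, with a sum of 1372, 72.5, 307 and 78.5 FPKM after saline and of 1274, 2574 and 6601 FPKM after LPS, with S100a9 the most abundant. In these lists only Marco in saline replicate 1 and Ly6g in saline replicate 4 were at 0. Of the endothelial markers 4 of 12 were called lower and 0 higher, or 5 lower with total reads, 9 with quantile normalization and 0 when the libraries were scaled on these markers themselves, with a sum of 5778, 3615, 4378 and 3739 FPKM after saline and of 1516, 2997 and 3521 FPKM after LPS. Cldn5 was the most abundant, and Pecam1 gave -0.17 (SE 0.21, adjusted p = 0.516). Of the erythroid markers, globin genes whose near-identical copies can share reads, 3 of 4 were called higher, and of the lymphocyte, epithelial, mural and fibroblast markers 0 were called higher and 2, 2, 2 and 0 lower. Under the other scalings the leukocyte and macrophage counts stayed at 6 and 7, 5 or 6 neutrophil and 2 to 4 erythroid markers were higher, and 0 to 3 lymphocyte, 1 to 4 epithelial, 0 to 2 mural and 0 to 1 fibroblast markers were lower, with 1 epithelial and 1 mural marker higher under the endothelial scaling. The part of these cells in the RGS values was not tested.

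Within the LPS group several RGS genes, but not all, had their extremes in the same libraries. LPS replicate 1 had the highest mean log2(FPKM + 1) of the leukocyte markers (7.29) and the lowest of the endothelial markers (6.30), and LPS replicate 6 the reverse (6.01 and 7.40). Rgs1, Rgs2, Rgs14 and Rgs19 were each highest in replicate 1 and lowest in replicate 6. Rgs12 and Rgs4 were lowest in replicate 1 and highest in replicate 6. Rgs10 was lowest in replicate 6 and highest in replicate 2, Rgs18 was highest in replicate 1 and lowest in replicate 3, and Rgs16 was lowest in replicate 1 and highest in replicate 5. Rgs3 had neither extreme in these libraries, being highest in replicate 3 (10.5 FPKM) and lowest in replicate 5 (7.86 FPKM). LPS replicates 1 and 6 differed the most of all pairs of the LPS group (mean chi-square over genes 133). The share of all genes with their extremes in these libraries was not counted.

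**Figure D4:**
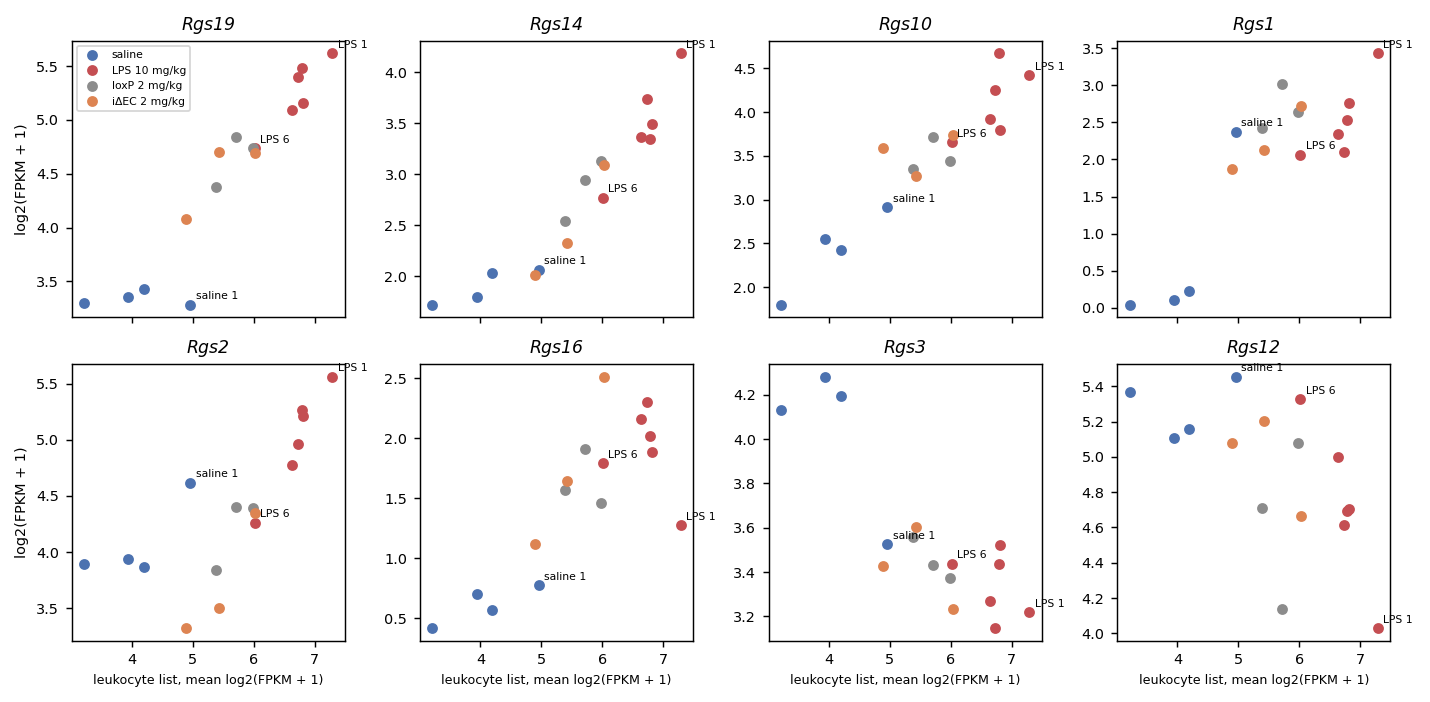
log2(FPKM + 1) of 8 RGS genes against the mean log2(FPKM + 1) of the 6 leukocyte markers, a point per library in all 4 groups, with 3 libraries named. LPS replicate 1, at 7.29 on the horizontal axis, is the highest LPS library for Rgs19, Rgs14, Rgs1 and Rgs2 and the lowest for Rgs12 and Rgs16.

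The RGS binding partners and GoLoco proteins gave 1 gene higher and 1 lower of 8 tested of 12. Gpsm3, a GoLoco protein of leukocytes, went from 9.51 to 16.4 FPKM after saline to 31.4 to 58.8 FPKM after LPS (log2 fold change 1.89). Axin2, a scaffold of the Wnt pathway with an RGS-like domain, went from 4.30 to 5.32 FPKM to 0.716 to 1.66 FPKM (-1.35). The alpha subunits, on which RGS proteins act, gave 1 higher and 1 lower of 12 tested of 13, with a median of -0.35. These were Gna15, a Gq class subunit of blood cells, at 1.88 and Gnao1, a Gi class subunit known from neurons, at -1.15. The beta and gamma subunits gave 2 higher and 0 lower of 8 tested of 15, namely Gngt2 (1.94) and Gng5 (1.18).

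The kinases and arrestins that switch off active receptors gave 3 higher and 0 lower of 9. Grk3 (2.09), Arrb2 (1.83) and Grk2 (1.19) each had all LPS libraries above all saline libraries. The effectors and RhoGEFs gave 4 higher and 2 lower of 18, with a median of -0.50. Pik3r5 (3.37) and Pik3cg (1.96) encode the subunits of the PI3-kinase that beta-gamma dimers activate in leukocytes, and Adcy7 (1.89) encodes an adenylyl cyclase. Arhgef12 (-1.53), a RhoGEF that carries an RGS-like domain and links G protein alpha subunits to the GTPase RhoA, went from 34.3 to 49.7 FPKM after saline to 10.1 to 23.8 FPKM after LPS, and Adcy6 (-1.33), a cyclase inhibited by Gi, was lower too.

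The GPCRs gave 15 higher and 3 lower of 30 tested of 33, with a median log2 fold change of 1.23. The formyl peptide receptors Fpr2 (5.72) and Fpr1 (5.63), which guide neutrophils, and the platelet activating factor receptor Ptafr (4.82) had the largest increases. Fpr2 went from 0.980 to 3.62 FPKM after saline to 82.5 to 236 FPKM after LPS. The 3 lower ones were Aplnr, Ednrb and S1pr3. Aplnr, the apelin receptor, went from 81.2 to 138 FPKM to 4.20 to 10.8 FPKM (-3.84), the endothelin receptor Ednrb gave -2.44, and the sphingosine-1-phosphate receptor S1pr3 gave -1.03. The enzymes of the Arg/N-degron pathway, which marks Rgs4, Rgs5 and Rgs16 proteins for degradation, gave 0 of 7 past both limits, and the largest difference was that of Metap2 (0.60). The adjusted p-values of the called genes named from these lists were at most 0.000837 (S1pr3) in limma, and no called gene of the lists changed sign under another scaling. Other scalings moved the counts of several lists. Under scaling on the endothelial markers, 2 GPCRs and 0 genes of the partner, alpha subunit, beta and gamma subunit, kinase and arrestin and effector lists were called lower, and 19, 2, 3, 4, 5 and 5 genes of these lists, in that order, were called higher, with 1 gene of the Arg/N-degron list. The alpha subunits gave 1 higher and 3 lower with total reads as well as with quantile normalization. The beta and gamma subunits gave 1 higher and 1 lower with total reads, and 1 higher and 2 lower with quantile normalization. The effectors gave 3 higher and 3 lower, and 4 higher and 4 lower, under the same settings, and the GPCRs gave 15 and 16 higher with 5 lower in each. The kinases and arrestins gave 2 higher and 1 lower under both, and the partners gave 1 higher and 3 lower with total reads.

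**Figure D5:**
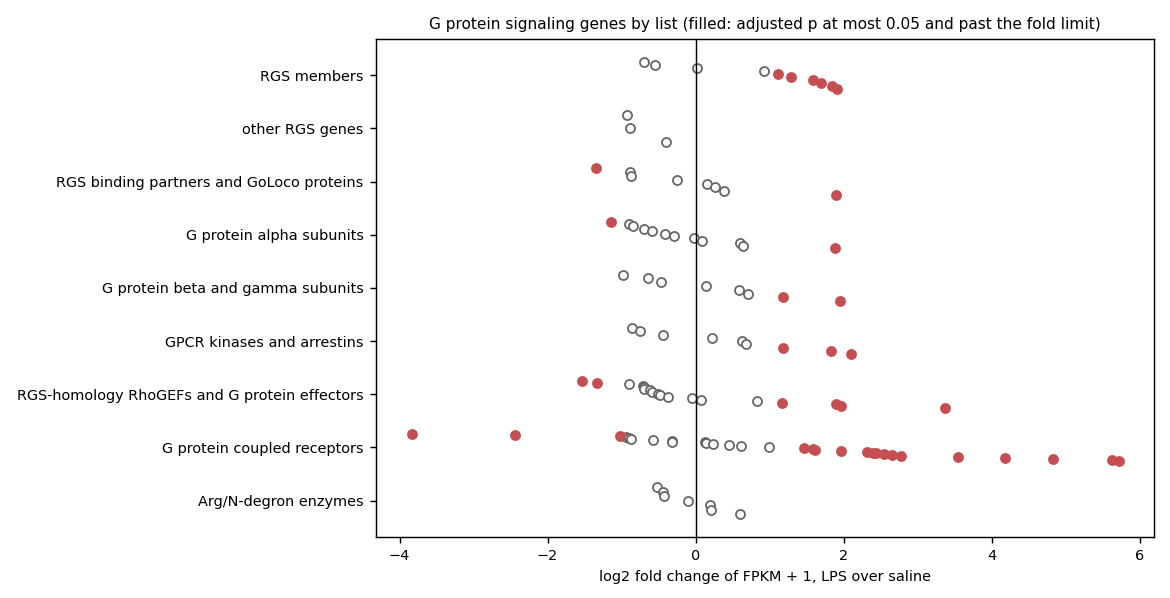
log2 fold change of FPKM + 1 after LPS over saline for every tested gene of the RGS members and 8 other lists of G protein signaling genes, a point per gene, filled where past both limits. The GPCR list spreads from -3.84 to 5.72, and in the RGS members 6 of 10 points are filled.

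The comparison of Fgfr1 iΔEC/iΔEC with Fgfr1 loxP/loxP mice, all given LPS, asked how loss of the FGF receptor FGFR1 in ECs went with the RGS genes. None of the 10 members was called. Fgfr1 itself was at 2.90, 2.91 and 2.60 FPKM in loxP/loxP mice and at 0.682, 1.41 and 1.15 FPKM in iΔEC/iΔEC mice, so that the groups did not overlap. Its log2 fold change was -0.88 (SE 0.16, limma adjusted p = 0.962), and the exact permutation p was 0.1, which is the lowest possible with 3 and 3 libraries. Over 14945 genes tested, 0 (0%) passed the adjusted p in limma, also in limma-voom on the recovered reads, and 661 (4.42%) had an unadjusted p under 0.05. The median log2 fold change was -0.09 over the members and 0.01 over all genes.

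Rgs1 was at 4.34, 7.10 and 5.20 FPKM in loxP/loxP mice and at 2.66, 5.59 and 3.37 FPKM in iΔEC/iΔEC mice. The groups overlapped, and the difference was -0.45 with a 95% confidence interval from -1.06 to 0.16 on the log2 scale. Rgs2 was at 13.3, 20.1 and 19.98 FPKM against 9.02, 19.4 and 10.4 FPKM, a difference of -0.48 (-1.19 to 0.23), the largest in size among the members on the log2(FPKM + 1) scale. As log2 ratios of the mean FPKM, Rgs1 (-0.52) and Rgs18 (0.51) were larger in size than Rgs2 (-0.46). In both Rgs1 and Rgs2, iΔEC/iΔEC replicate 2 was as high as the controls and the other iΔEC/iΔEC libraries were lower. Rgs14 had the same order, with 4.83, 6.70 and 7.73 FPKM against 3.02, 7.51 and 4.00 FPKM (-0.40, interval -1.11 to 0.31).

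Rgs18 was at 2.84, 2.70 and 4.73 FPKM in loxP/loxP mice and at 4.27, 5.89 and 4.47 FPKM in iΔEC/iΔEC mice. A control library lay within the iΔEC/iΔEC range, and the difference of 0.43 (interval -0.06 to 0.92) had the smallest unadjusted p of the members (0.0739 in limma, adjusted 0.962). Rgs12 gave 0.34 (-0.29 to 0.97), with 25.2, 16.6 and 32.8 FPKM against 32.8, 24.4 and 35.9 FPKM. Rgs16 was the most uneven in iΔEC/iΔEC mice, with 1.96, 2.76 and 1.75 FPKM against 1.17, 4.71 and 2.13 FPKM, and gave 0.11 (-0.72 to 0.95).

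Rgs4 was the only member whose groups did not overlap, with 1.27, 1.38 and 1.26 FPKM against 1.21, 0.838 and 1.17 FPKM and a difference of -0.16 (-0.46 to 0.15, exact permutation p = 0.1, limma adjusted p = 0.962). Of all genes tested, 4.09% had all iΔEC/iΔEC libraries below all controls and 6.02% above. The remaining members had overlapping groups and small differences. Rgs19 was at 19.8, 27.6 and 25.6 FPKM in loxP/loxP mice and at 15.9, 24.9 and 25.1 FPKM in iΔEC/iΔEC mice (-0.16, interval -0.66 to 0.35). Rgs3 was at 10.8, 9.78 and 9.37 FPKM against 9.77, 8.40 and 11.2 FPKM (-0.03, interval -0.33 to 0.26). Rgs10 was at 9.18, 12.1 and 9.90 FPKM against 11.03, 12.3 and 8.61 FPKM (0.03, interval -0.35 to 0.41). The adjusted p-values of all 10 members were from 0.962 to 0.993 in limma. An absolute difference of 1 on the log2(FPKM + 1) scale lay outside the intervals of all members but Rgs1, Rgs2 and Rgs14. It lay outside those of 10 of 10 members with the same-numbered libraries as a block, a pairing taken from these data. For low genes such as Rgs4, Rgs16 and Rgs18 that difference is a larger ratio of FPKM, so these intervals do not bound the ratio of FPKM in the same way.

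The libraries of this experiment differed in other cell types as well. The summed leukocyte markers were 352, 469 and 470 FPKM in loxP/loxP mice and 243, 547 and 338 FPKM in iΔEC/iΔEC mice. The iΔEC/iΔEC replicate 1, lowest in these markers, was also the lowest of its group in Rgs1, Rgs2, Rgs14, Rgs16, Rgs18 and Rgs19. Replicate 2, the highest in these markers, was the highest in Rgs1, Rgs2, Rgs10, Rgs14, Rgs16 and Rgs18 and the lowest in Rgs3, Rgs4 and Rgs12. Here too, the share of all genes with their extremes in these libraries was not counted. The differences were below 0 for 6 of 6 leukocyte, 8 of 8 neutrophil and 6 of 6 lymphocyte markers (medians -0.21, -0.48 and -0.40), and above 0 for 6 of 8 platelet and 4 of 4 erythroid markers (medians 0.17 and 0.33). The mean of the platelet markers was higher in the iΔEC/iΔEC library in same-numbered pairs 1 and 2 and lower in pair 3 (differences 0.58, 0.21 and -0.25). Rgs10 (0.24, 0.027 and -0.18) and Rgs18 (0.46, 0.90 and -0.065) had the same signs. The neutrophil sums were 1164, 2535 and 2567 FPKM in loxP/loxP and 745, 2424 and 1520 FPKM in iΔEC/iΔEC mice. The 10 epithelial markers were all lower in iΔEC/iΔEC mice (median log2 fold change -0.77), with sums of 924, 1674 and 2914 FPKM in loxP/loxP and 430, 1104 and 847 FPKM in iΔEC/iΔEC mice. Of the 12 endothelial markers 11 were higher (median 0.33), with sums of 3066, 2412 and 2578 FPKM against 3885, 2763 and 3558 FPKM. The means of the epithelial, neutrophil and mural markers were lower, and that of the endothelial markers higher, in each of the 3 same-numbered pairs of libraries. No gene of the marker lists was called, and the part of these cells in the RGS values was not tested.

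Same-numbered libraries were taken as pairs from these same data, and no label gives such pairs. Between them, Rgs1, Rgs2, Rgs4 and Rgs19 were lower in the iΔEC/iΔEC library in 3 of 3 pairs and Rgs12 was higher in 3 of 3. These genes were 5 of the 10 members, beside 30.7% of the 14945 genes tested that went one way in all 3 pairs. With the pairs as a block, limma gave Rgs1 a log2 fold change of -0.45 (95% confidence interval -0.72 to -0.18, adjusted p = 0.571), Rgs2 -0.48 (-0.95 to -0.019, adjusted p = 0.639) and Rgs12 0.34 (0.043 to 0.64, adjusted p = 0.622), so that none was called. Without the block, Rgs12 was at 0.068 under scaling on the endothelial markers and at 0.088 to 0.56 with a library left out.

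In the lists of G protein signaling genes 0 genes were called. The genes with the largest difference within their own list, 1 for each list, were the chemokine receptor Cxcr4 (-0.74), the GTPase-activating protein Rap1gap (-0.46), the arrestin-like Arrdc4 (0.42), the RhoA effector kinase Rock2 (0.38), the alpha subunit Gna13 (0.24), Rgs9 (0.22), the ubiquitin ligase Ubr4 (0.20) and Gnb1 (0.16).

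Side by side, the controls of the second experiment, given 2 mg/kg LPS, stood between saline and 10 mg/kg LPS in mean FPKM for 6 of the 10 members. In each of these 6, the range of the control libraries overlapped that after saline or that after 10 mg/kg LPS. The share of all genes in this order was not counted. The tables were normalized separately, mice, dose and genotype differed, and tamoxifen was described only for the second experiment, so no test was made. Rgs19 had a mean of 9.14 FPKM after saline, 24.3 FPKM in loxP/loxP mice and 37.8 FPKM after 10 mg/kg. Rgs14 had 2.76, 6.42 and 10.7 FPKM in the same order, and Rgs10 had 4.56, 10.4 and 17.0 FPKM. The 4 whose control mean did not stand between were Rgs1 and Rgs18, with 5.55 and 3.42 FPKM in loxP/loxP mice against 5.15 and 2.85 FPKM after 10 mg/kg, and Rgs12 and Rgs4, with 24.9 and 1.304 FPKM against 26.5 and 1.86 FPKM.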

How the data were processed

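RNA was sequenced by the authors on an Illumina NovaSeq instrument, aligned to GRCm38/mm10 with HISAT2 2.0.5 and counted on genes with featureCounts 1.5.0-p3. The authors deposited FPKM with gene lengths, 54532 genes per table, and the annotation release was not given in the sources used here. Whole reads were recovered for 100% of the values up to 500 reads, within 0.05 read. The names of 11 genes differed between the tables, and those of the first were used. Libraries were put on one scale with median-of-ratios factors, which lay within 0.182% of the deposited FPKM, and log2(FPKM + 1) was tested with limma 3.58.1 in R 4.3.3, with Benjamini-Hochberg adjustment. Tests were checked on simulated data. Exact permutation tests and tables used Python 3.11.15 and scipy 1.17.1.

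The RGS members, the pathway and marker lists and the rules were chosen with earlier results of these data known. All members were named, with Fgfr1, Pecam1 and Ptprc as checks, and of each pathway list up to 3 called genes per direction with the largest change, or the largest change where none was called. In the second experiment same-numbered libraries deviated together (r = 0.25, 0.18 and 0.19 across genes), so their numbers were taken as pairs from the data. No 2 libraries of a group were copies, the lowest mean chi-square between them being 7.28. Alternatives were another pseudocount, no filter, other scalings, quantile normalization, a replicate block, limma-voom and leaving out libraries. Intervals and floors cover counting error or the spread of libraries only.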

Additional observations from a re-analysis of the deposited data

Results flagged for a closer look

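Of 46 sets of library values in the saline and LPS groups, 7 held a library farther from the others than Dixon's limit, where chance gives about 1 in 20, or 2.3. In saline replicate 1, Rgs1 was at 4.18 FPKM (others 0.0322 to 0.176), Rgs2 at 23.6 FPKM (others 13.6 to 14.3) and Fgfr1 at 5.52 FPKM (others 2.82 to 3.17). In LPS replicate 1, Rgs4 was at 0.999 FPKM (others 1.84 to 2.24) and the endothelial marker list had a mean log2(FPKM + 1) of 6.30 (others 7.002 to 7.40). In saline replicate 3, the lymphocyte list had a mean of 1.85 (others 3.18 to 3.40) and the fibroblast list of 2.21 (others 2.70 to 2.77).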

How the results depend on the processing

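In LPS over saline, the log2 fold changes of the 10 members kept direction and side of the adjusted p threshold in 160 of 180 alternatives, without the deposited FPKM, whose scale was already that of the fit. Genes called higher were 4710 with scaling on the endothelial markers and 4399 with no fold limit. Genes called lower were 180 with that scaling, 1840 with a pseudocount of 0.1, 2008 in limma-voom and 3529 with no fold limit, which also put 2 members lower. Left-out libraries gave 1641 to 1947 genes higher and 910 to 1107 lower. Scaling on the endothelial markers shifted the median of all genes by 0.61 to 0.62, and total reads by -0.16. Under the endothelial scaling Rgs3 was at 0.036 and Rgs12 at 0.22, or -0.58 and -0.40 relative to that median, and Rgs4 at 0.50 (adjusted p = 0.0297). Rgs4 was at -0.11 with total reads, -0.062 with the replicate block and -0.14 to 0.12 with a library left out. In the first experiment same-numbered libraries did not deviate together (r = -0.21 to 0.10) and share only a number. The replicate block there gave 1925 genes higher and 1063 lower, and Rgs12 lost its adjusted p. In the second experiment the block changed no call.

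In Fgfr1 iΔEC/iΔEC over loxP/loxP mice, 110 of 120 alternatives kept the direction, without the block and the omitted filter, which leave the log2 fold changes as they are. Rgs10 was at -0.032 with total reads and -0.23 with the endothelial scaling, under which the median of all genes shifted by -0.22 and Rgs16 was at -0.054. With a library left out, Rgs3 ranged from -0.12 to 0.062, Rgs10 from -0.075 to 0.16, Rgs16 from -0.26 to 0.44 and Rgs19 from -0.29 to 0.049. The other members kept direction but moved in size. Rgs1 ranged from -0.69 to -0.27, Rgs2 from -0.79 to -0.28 and Rgs14 from -0.71 to -0.17. Rgs4 ranged from -0.21 to -0.072, Rgs12 from 0.088 to 0.56 and Rgs18 from 0.31 to 0.63. The causes of these changes were not tested. With 3 libraries per group no gene passed the threshold, Fgfr1 at -0.88 included, and the size of difference that could pass is not given here. Rgs16 and Rgs18 after saline rest on few reads.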
